A study of Arabidopsis thaliana with 12 samples.

Results

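The gene table of this Arabidopsis thaliana study lists 76 noncoding RNA entries under Ensembl identifiers beginning with ENSRNA, among 22337 genes with at least 1 read in 1 library. They were taken by that prefix alone, with no use of their levels, and an entry absent from the table of tagged reads was given 0 tagged reads there. Neither the deposited tables nor the RefSeq gene table supplied (TAIR10.1) gives a symbol, RNA class, position or sequence for any of the 76, so they are described by identifier. The files list each identifier with the transcript suffix T1. Whether entries overlap each other or a gene listed under its Arabidopsis locus name was not tested, and reads of near-identical copies may have been split between entries.

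Identifiers of this form are given by Ensembl's annotation of plant genomes to noncoding RNA genes predicted from known RNA families. Such families include structural RNAs of the ribosome, the spliceosome, the nucleolus and protein transport, many of which are made without the long poly(A) tail of messenger RNA. NAD can stand at the 5′ end of an RNA in place of the usual cap. In NAD tagSeq the enzyme adenosine diphosphate ribosylcyclase (ADPRC) exchanges part of that NAD for a chemical handle. A synthetic tag RNA is joined to the handle, and tagged molecules can be captured before they are read one by one by Nanopore direct RNA sequencing.

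All 12 libraries came from 12-day-old Col-0 wild-type seedlings grown on plates under long days, with no treatment of the plants. Poly(A) RNA enriched for the tag was read in 3 libraries with ADPRC and 3 without, unenriched poly(A) RNA in 3 with and 1 without, and enriched total RNA in 1 of each. A library without ADPRC passed through the tagging reaction without the enzyme and shows its background. Nothing in the labels ties replicates to separate cultures of plants. The spread behind each p-value is therefore that between these libraries and may be technical.

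Poly(A) libraries held 378322 to 1233999 reads, and the total RNA libraries 6479 with and 1237 without ADPRC. Levels are TPM as deposited, which behave here as CPM, that is reads scaled to the total of the library, with no correction for transcript length. A count of 0 allows up to 3 reads, or 2.43 to 7.93 TPM in a poly(A) library and 463 and 2425 TPM in the total RNA libraries. These limits and all intervals cover counting error only. The leaf genes RBCS1A and CAB1 and the root gene PYK10 had reads in all 10 poly(A) libraries, with medians of 22900, 19796 and 2092 TPM. The pollen genes SKS13 and PGA4 had none, and the seed genes CRA1, CRU3, SESA1 and OLEO1 stayed at or below 7.93 TPM. In seedlings read in bulk, fewer cells of a type and less RNA per cell cannot be told apart.

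The reads were concentrated in a few entries. ENSRNA049451242-T1 held 2730 reads over the 12 libraries, ENSRNA049494572-T1 held 1416 and ENSRNA049493837-T1 held 552. Together they made up 85.9% of the 5470 reads of all 76 entries, and the first alone 49.9%. The fourth, ENSRNA049493776-T1, followed with 116 reads. A further 18 entries had 10 to 99 reads, 30 had 2 to 9, and 24 had 1 read in the whole series. These are counts per entry, and without entry lengths no order of abundance per length can be given. ENSRNA049451242-T1 and ENSRNA049494572-T1 were read in all 12 libraries, and 4 entries in all 10 poly(A) libraries.

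ENSRNA049451242-T1 stood at 1110, 1221 and 972 TPM in unenriched poly(A) libraries with ADPRC and at 892 TPM in the one without it. After enrichment it stood at 83.4, 123 and 112 TPM with ADPRC and at 69.2, 99.8 and 95.9 TPM without. Every unenriched library lay above every enriched one, and the enriched groups with and without ADPRC overlapped. In total RNA it had 9878 TPM with ADPRC (64 reads; 95% Wilson interval 7744 to 12593 TPM) and 1617 TPM without (2 reads; 444 to 5876).

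ENSRNA049494572-T1 had 558, 602 and 479 TPM in unenriched libraries with ADPRC and 501 TPM in the control. Enriched libraries had 49.3, 51.6 and 44.6 TPM with ADPRC and 64.1, 59.5 and 64.3 TPM without. The unenriched libraries were again all higher than the enriched ones, and among enriched libraries the 3 without ADPRC lay above the 3 with it. Total RNA held 7717 TPM with ADPRC (50 reads; 5859 to 10159 TPM) and 2425 TPM without (3 reads; 825 to 7106).

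ENSRNA049493837-T1 had 151, 233 and 207 TPM in unenriched libraries with ADPRC and 193 TPM in the control. After enrichment it had 26.4, 18.8 and 8.10 TPM with ADPRC and 74.4, 46.1 and 34.8 TPM without. No enriched library with ADPRC reached the lowest without it. Total RNA gave no read with ADPRC and 1 read without.

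**Figure D1:**
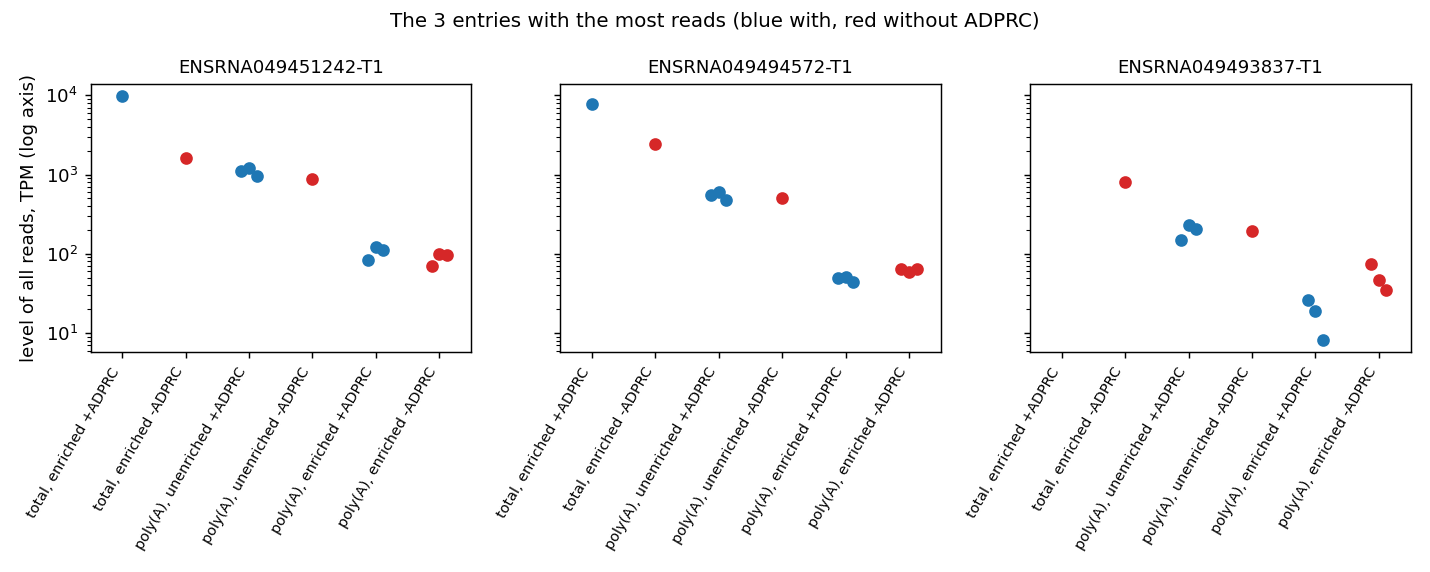
Level of all reads in TPM (log axis) of the 3 entries with the most reads, 1 point per library, in the 6 library groups. Blue points are libraries with ADPRC and red points libraries without it, and the total RNA library with ADPRC, which had no read of ENSRNA049493837-T1, is not drawn in the right panel. The unenriched poly(A) libraries lie above the enriched poly(A) libraries in all 3 panels.

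Summed over the 76 entries, unenriched poly(A) libraries with ADPRC had 2064, 2350 and 1998 TPM (2137 ± 187, SD, n = 3), or 0.214% of their reads. The unenriched library without ADPRC had 1852 TPM (0.185%, Wilson interval 0.173% to 0.198%). Enriched libraries with ADPRC had 192, 212 and 192 TPM (199 ± 11.6, n = 3). Enriched libraries without ADPRC had 274, 244 and 243 TPM (254 ± 18.0, n = 3). The 3 replicated groups did not overlap, and the unenriched mean lay 10.7 times above the enriched one with ADPRC and 7.30 times without it. Without the 3 entries named above these ratios were 11.1 and 5.20.

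Total RNA held the highest share. With ADPRC 119 of 6479 reads fell in the entries, which is 1.84% (Wilson interval 1.54% to 2.19%) or 18367 TPM, 92.4 times the mean of enriched poly(A) libraries with ADPRC. Without ADPRC it was 6 of 1237 reads, 0.485% (0.222% to 1.05%). The 2 intervals do not overlap, and with 1 library each this compares the libraries and not the reactions. Of the 119 reads 114 belonged to ENSRNA049451242-T1 and ENSRNA049494572-T1. ENSRNA049494594-T1 and ENSRNA049495687-T1 had 2 reads each and ENSRNA049494585-T1 had 1. No other entry had a read in that library, where the depth allows up to 463 TPM. The 6 reads in the library without ADPRC belonged to ENSRNA049451242-T1, ENSRNA049494572-T1 and ENSRNA049493837-T1. In the same library with ADPRC plastid genes held 135206 TPM and the 4 nuclear ribosomal RNA genes 13428 TPM.

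**Figure D2:**
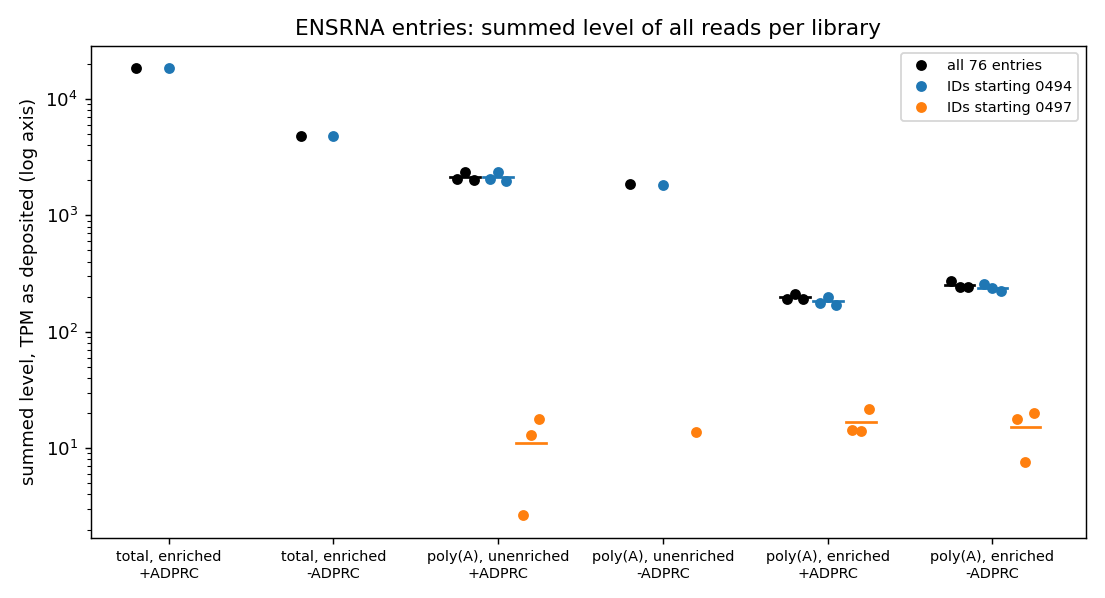
Summed level of all reads in TPM (log axis) per library and library group for all 76 entries and for the entries whose identifier digits begin with 0494 or 0497, with lines at the means of replicated groups. Total RNA lies highest with 18367 TPM, and the 0497 entries, absent from total RNA, stay between 2.64 and 21.9 TPM in poly(A) libraries.

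How the capture of tagged molecules changed the levels was asked among libraries with ADPRC. The entries were lower after enrichment. Limma on log2(TPM + 1.23), for genes above 0 in at least 3 of the 6 libraries, called 15 of the 25 entries tested lower and 0 higher at an adjusted p under 0.05. Over all 18831 genes tested it called 1.96% lower and 2.99% higher. The other 51 entries did not pass this filter. In 18 of the 25 every enriched library lay below every unenriched one, against 8.66% of genes. Of the 25 tested, 6 had no read in the enriched libraries and passed only through the unenriched ones, so that their direction was set beforehand. These 6 needed a read in all 3 unenriched libraries to pass, so the filter alone placed them among the 18. Of the other 19, 11 were called. Among these, only ENSRNA049451242-T1, ENSRNA049494572-T1, ENSRNA049493837-T1 and ENSRNA049493776-T1 had a read in all 3 enriched libraries. The rest needed reads in unenriched libraries to pass the filter, which favours a lower level after enrichment. With no filter 16 of 69 entries were called lower, against 1.80% of genes. At a mean of 10 TPM or more over the 6 libraries, 7 of 7 were, against 6.83% of genes. ENSRNA049493776-T1, ENSRNA049493783-T1, ENSRNA049493835-T1 and ENSRNA049495688-T1 passed this filter only through the unenriched libraries, so that it set their direction. Their enriched means were 1.11, 0.554, 0.837 and 0.840 TPM. The median log2 fold change was -2.58 over the 25 entries and 0.20 over all genes tested.

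The 3 entries with the most reads fell by a like amount. ENSRNA049451242-T1 fell from 1101 ± 125 to 106 ± 20.4 TPM (SD over 3 libraries each), a log2 fold change of -3.37 (SE 0.17, limma adjusted p = 5.32e-07). ENSRNA049494572-T1 fell from 546 ± 62.6 to 48.5 ± 3.60 TPM (log2 fold change -3.46, SE 0.15, adjusted p = 3.07e-07). ENSRNA049493837-T1 fell from 197 ± 41.9 to 17.8 ± 9.18 TPM (-3.49, SE 0.34, adjusted p = 0.000287). In linear terms the unenriched means were 10.4, 11.3 and 11.1 times the enriched ones.

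Among the rarer entries called, several had larger ratios with wide intervals. ENSRNA049493776-T1 and ENSRNA049493783-T1 had the largest log2 fold changes in limma, whose pseudocount lowers those of rare entries. The first had 44.9, 61.4 and 46.5 TPM before and 1.70, 0.819 and 0.810 TPM after enrichment, a log2 fold change of -4.48 (SE 0.39, limma adjusted p = 0.000113), and a pooled ratio of 47.2 with a 95% counting interval from 17.7 to 177. ENSRNA049493783-T1 had 23.8, 24.2 and 42.9 TPM before, and 2 reads in all 3 libraries after (-4.13, SE 0.49, adjusted p = 0.00105). Its pooled ratio was 56.0 (14.7 to 475). ENSRNA049493835-T1 and ENSRNA049495688-T1 each had 3 enriched reads, with pooled ratios of 38.1 (12.3 to 191) and 31.9 (10.2 to 161). ENSRNA049495714-T1 had 2, with a ratio of 30.3 (7.59 to 263). Pooled ratios were 10.4 (9.30 to 11.6) for ENSRNA049451242-T1, 11.3 (9.58 to 13.4) for ENSRNA049494572-T1 and 11.5 (8.80 to 15.4) for ENSRNA049493837-T1. Among these rarer entries only the interval of ENSRNA049493776-T1 began above those of all 3. That of ENSRNA049493783-T1 overlapped the interval of ENSRNA049493837-T1. That of ENSRNA049493835-T1 overlapped those of ENSRNA049493837-T1 and ENSRNA049494572-T1. The intervals of ENSRNA049495688-T1 and ENSRNA049495714-T1 overlapped all 3.

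ENSRNA049493786-T1, at 13.2, 16.2 and 17.9 TPM before and 2.55, 1.64 and 0 TPM after enrichment, was lower as well, by 11.3 times (log2 fold change -2.83, SE 0.55, adjusted p = 0.0143). ENSRNA049494594-T1 had 5.29, 4.85 and 8.93 TPM before and no read after. Its mean before was 7.69 times the level of 3 reads over the 3 enriched libraries, without the counting error of its own 10 reads. With ADPRC the unenriched and enriched libraries of these entries did not overlap, which for ENSRNA049494594-T1 was set by the filter. ENSRNA049495687-T1, at 0, 11.3 and 7.15 TPM before and 0.851, 0 and 0 TPM after, was not called by limma (adjusted p = 0.215) but was by edgeR with library totals (0.0215), and its groups overlapped.

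The count depended on the unenriched libraries. Without replicate 2 or without replicate 3 of them it was 8 in each case, of 18 and 17 entries tested, and the share of all genes called lower fell as well, to 0.631% and 0.629%. DESeq2 gave an adjusted p for 7 of the 25 and called these 7 lower, against 6.17% of genes. They were the same 7 as at a mean of 10 TPM or more. Among them were ENSRNA049493776-T1, ENSRNA049493783-T1, ENSRNA049493835-T1 and ENSRNA049495688-T1, whose reads were nearly all unenriched, so the 2 counts are not independent. EdgeR called 19 of 25 both with library totals, against 2.46%, and with TMM scaling, against 3.31%. In each case 13 of the 19 had a read in both groups, several of them in fewer than 3 enriched libraries.

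The same direction was found without ADPRC, where 3 enriched libraries faced 1 unenriched library. That library lay above every enriched library without ADPRC for each of the 15 entries called. The share of all genes for which it did so was not taken, so this count is not read as a result about the entries. ENSRNA049495691-T1 had no read in the enriched libraries without ADPRC, so any read in the control placed it above them. A limma fit of all 10 poly(A) libraries, added after the data had been seen and with the lone library assumed to vary like the others, called 5 of 36 entries lower after enrichment without ADPRC and 0 higher, against 0.292% of genes lower and 1.15% higher. They were ENSRNA049451242-T1, ENSRNA049494572-T1, ENSRNA049493837-T1, ENSRNA049493776-T1 and ENSRNA049495714-T1. With ADPRC this fit called 17 of 36 lower, against 2.12% of genes. Of the 36, 13 had no read in the enriched libraries with ADPRC, so that they could not come out higher, and 5 of these were among the 17. Those called without ADPRC all had reads in the enriched libraries without it. ENSRNA049495714-T1 had only 1 read there and 7 in the lone unenriched library (pooled ratio 29.9, counting interval 3.85 to 1349). ENSRNA049493776-T1 had 5 and 26. In limma's test of the interaction of enrichment and ADPRC 0 of 36 entries were called, with 1 at an unadjusted p under 0.05, ENSRNA049493837-T1 (difference -1.52 on the log2 scale, SE 0.55, adjusted p = 0.610). The interaction rests on 1 unenriched library without ADPRC and was fitted with limma alone.

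Other noncoding classes of the same tables are given beside the entries. The 4 nuclear ribosomal RNA genes had a summed level 11.8 times higher before than after enrichment with ADPRC, and 38 small nucleolar RNA genes 10.5 times. The 747 other noncoding RNA genes, the largest class, had a ratio of 1.80. The 10 small nuclear RNA genes had a ratio of 26.1, which rests on 23 reads in the unenriched libraries and 2 in the enriched ones. Plastid genes had a ratio of 2.48, mitochondrial genes 2.02 and protein-coding genes 0.988. The limma fit of the 6 libraries called 2 of 4 ribosomal, 4 of 12 nucleolar, 0 of 3 small nuclear and 10 of 359 other noncoding RNA genes lower, and 8 of the last higher. These ratios were not tested against that of the entries.

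**Figure D3:**
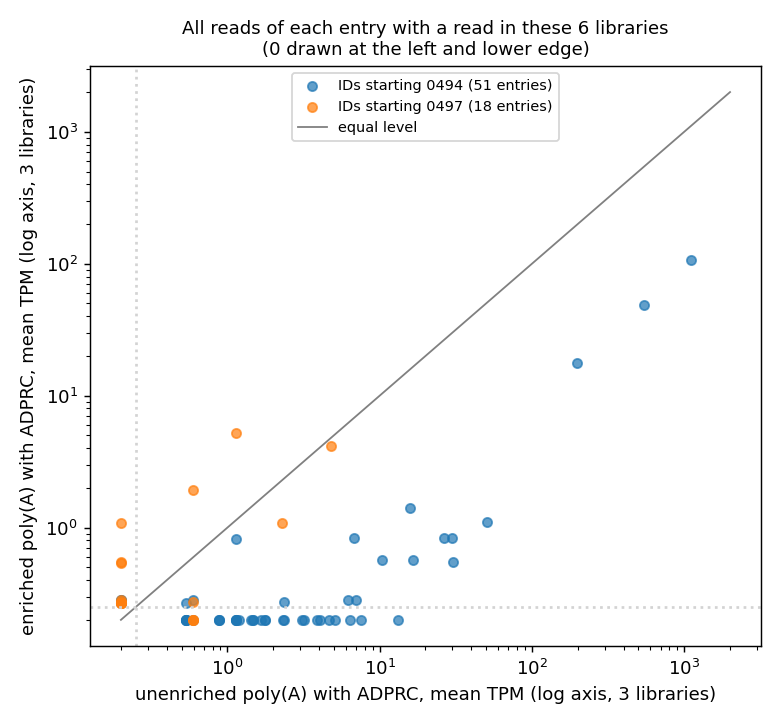
Mean level of all reads per entry in unenriched (horizontal) and enriched (vertical) poly(A) libraries with ADPRC, in TPM on log axes, 3 libraries each; the diagonal marks equal levels and entries at 0 are drawn at the edges beyond the dotted lines. The 3 entries with the most reads lie at the upper right below the diagonal, and the entries on or above it are mostly those whose digits begin with 0497.

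The entries fall into 2 ranges of identifier number, a split made after their values had been seen and therefore given without a test. Digits from 049451242 to 049495735 mark 56 entries, called the 0494 entries here, and digits from 049757560 to 049758084 mark 20, the 0497 entries. The 0494 entries included the 15 called lower after enrichment, and their summed level was 2126 ± 187 TPM before and 182 ± 14.5 TPM after it with ADPRC (SD, n = 3 each). The 0497 entries had 2.64, 12.9 and 17.9 TPM before and 14.5, 13.9 and 21.9 TPM after. They overlapped between the groups, with means of 11.1 ± 7.77 and 16.8 ± 4.44 TPM. Without ADPRC they had 13.8 TPM before and 17.9, 7.68 and 20.03 TPM after enrichment.

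Of the 0494 entries 23 were read in unenriched but no enriched poly(A) library and 7 in enriched only. Of the 0497 entries 3 were read in unenriched libraries only and 12 in enriched only. More enriched than unenriched libraries entered these counts, and the enriched libraries with ADPRC were also the 3 deepest. The part of library number and depth in these counts was not tested, and the shares over all genes were not taken.

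Of the 0497 entries 4 were tested for enrichment and 0 called by limma, with 1 at an unadjusted p under 0.05, or by edgeR. DESeq2 gave none of them an adjusted p. The one with the low unadjusted p was ENSRNA049757750-T1, with 0, 1.62 and 1.79 TPM before and 5.10, 4.10 and 6.48 TPM after, a log2 fold change of 1.54 (SE 0.55, limma adjusted p = 0.137). The groups did not overlap with ADPRC, but without it the enriched libraries had 5.13, 0 and 9.49 TPM around the 6.90 TPM of the unenriched one. ENSRNA049757761-T1 had 2.64, 8.08 and 3.57 TPM before and 6.81, 1.64 and 4.05 TPM after (-0.17, SE 0.58, adjusted p = 0.905).

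Whether ADPRC itself changed the level of the entries among all reads was asked in enriched poly(A) RNA. Limma, with no block for the replicate number, called 0 of 19 entries tested, with 2 at an unadjusted p under 0.05. It called 0.0731% of 19150 genes higher and 0.0418% lower. EdgeR with library totals called 0 of the entries, against 0.198% of genes higher and 0.0679% lower. DESeq2 gave 2 of them an adjusted p and called 0, against 1.54% of genes higher and 0.345% lower. Of the 19 entries 13 had a higher mean without ADPRC. The log2 fold change was below 0 in 13 entries, against 45.9% of all genes tested. The median log2 fold change was -0.36 against 0.05 over all genes tested.

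ENSRNA049493837-T1 had the lowest p of the 19. It had 17.8 ± 9.18 TPM with and 51.7 ± 20.4 TPM without ADPRC (SD over 3 libraries each), a log2 fold change of -1.56 (SE 0.40, limma adjusted p = 0.299). With the replicate number as a block it was called lower with ADPRC (adjusted p = 0.00381), the 1 entry called in that fit, which called 0.324% of genes lower. It was also the 1 entry called by edgeR with TMM (adjusted p = 0.0110), against 0.0836% of genes lower, and by the limma fit of all 10 poly(A) libraries (0.0418), against 0.0705%. Without replicate 1 of the libraries with ADPRC limma gave an adjusted p of 0.0123. The call therefore depended on the fit, while the direction was the same in each of these.

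ENSRNA049494572-T1 had 48.5 ± 3.60 TPM with and 62.6 ± 2.71 TPM without ADPRC, and the groups did not overlap, but it was not called (log2 fold change -0.36, SE 0.20, adjusted p = 0.697). Of all genes tested 6.36% were lower with ADPRC without overlap of the groups, against 3 of the 19 entries, the third being ENSRNA049493783-T1. That entry had 0.851, 0 and 0.810 TPM with and 2.56, 9.60 and 1.05 TPM without ADPRC. In the other direction 1 of the 19 lay higher with ADPRC without overlap, ENSRNA049493731-T1, at 0.851, 0.819 and 0.810 TPM with and 0 TPM without. It passed the filter only through the libraries with ADPRC, so that its direction was set. The share of genes higher without overlap is not given here. ENSRNA049451242-T1 was not called either (0.26, SE 0.21, adjusted p = 0.823). In unenriched RNA, with 1 library without ADPRC, the fit of 10 libraries called 0 of 36 entries, with 0 at an unadjusted p under 0.05. It called 0.0201% of genes higher there, and limma alone was fitted.

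Tagged reads of the entries were few. All 12 libraries held 21 of them, in 9 entries, and 67 entries had none. Enriched poly(A) libraries with ADPRC held 19, as 5, 5 and 9 per library, or 4.25, 4.10 and 7.29 tagged TPM. Those without ADPRC held 0, 1 and 1. The unenriched and the total RNA libraries held none.

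Of the 19 tagged reads with ADPRC, 18 fell in 6 of the 0497 entries. ENSRNA049757750-T1 had 1, 2 and 3 tagged reads (0.851, 1.64 and 2.43 tagged TPM). ENSRNA049757861-T1 had 1, 2 and 1 (0.851, 1.64 and 0.810). ENSRNA049757761-T1 had 2, 0 and 2 tagged reads. ENSRNA049757560-T1 had 2 and ENSRNA049757594-T1 had 1, all in replicate 3, and ENSRNA049758078-T1 had 1 in replicate 2. None of these 6 had a tagged read without ADPRC. The nineteenth read belonged to ENSRNA049494572-T1. The 2 tagged reads without ADPRC belonged to ENSRNA049493835-T1 and ENSRNA049493837-T1, both 0494 entries without a tagged read with ADPRC.

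Tagged reads as a share of all reads are given for each range of identifiers. The shares were not tested against each other, since the split was made after the values had been seen. In enriched libraries with ADPRC 18 of 61 reads of the 0497 entries were tagged, 29.5% (pooled over 3 libraries, Wilson interval 19.6% to 41.9%). By library the share was 23.5%, 29.4% and 33.3%, where that of protein-coding genes was 24.0%, 21.0% and 14.2%. The intervals of the 0497 entries included the protein-coding share in replicates 1 and 2, and began at 18.6% in replicate 3. Of the 661 reads of the 0494 entries 1 was tagged, 0.151% (0.0267% to 0.852%), below the protein-coding share in every library. Without ADPRC the 0494 entries had 2 of 434 tagged, 0.461% (0.126% to 1.66%), an interval that overlaps the one with ADPRC. The 0497 entries had 0 of 30 tagged without ADPRC (up to 11.4%).

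ENSRNA049451242-T1 had 0 of 386 reads tagged in enriched libraries with ADPRC, with an upper limit of 0.985%, and ENSRNA049494572-T1 had 1 of 176 (0.568%, 0.100% to 3.15%). ENSRNA049493837-T1 had 0 of 64 (up to 5.66%). ENSRNA049757750-T1 had 6 of 19 tagged (31.6%, 15.4% to 54.0%) and ENSRNA049757761-T1 had 4 of 15 (26.7%, 10.9% to 52.0%). Pooled over the same libraries the share was 0.191% in nuclear ribosomal RNA genes, 0.308% in plastid genes, 7.99% in mitochondrial genes and 16.1% in small nucleolar RNA genes (8.69% to 27.8%).

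Before enrichment the entries had 0 tagged of 3354 reads with ADPRC, with an upper limit of 0.114%, where 0.643% of the reads of protein-coding genes were tagged. All but 19 of those 3354 reads belonged to 0494 entries, so the 0497 entries could not be judged there (0 of 19, up to 16.8%). In total RNA with ADPRC 0 of 119 reads were tagged (up to 3.13%), against 5.84% of protein-coding reads.

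**Figure D4:**
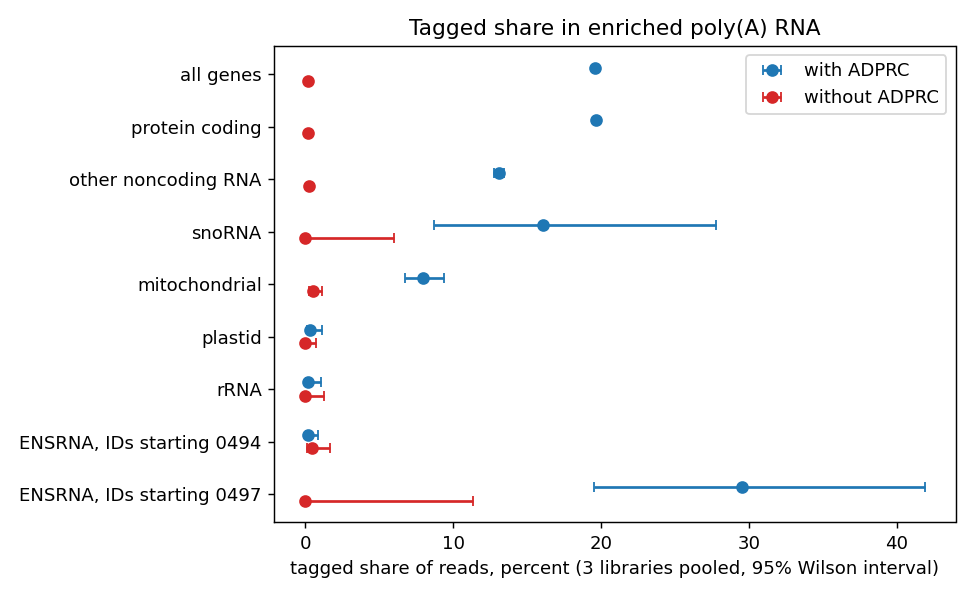
Share of reads that carried the tag in enriched poly(A) libraries with (blue) and without (red) ADPRC, in percent, for gene classes and for the 2 ranges of ENSRNA identifiers. Points pool 3 libraries and bars are 95% Wilson intervals. The 0494 entries lie at 0.151% with ADPRC beside ribosomal RNA and plastid genes, and the 0497 entries at 29.5%.

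Limma on tagged levels with and without ADPRC tested 2 of the 76 entries, ENSRNA049757750-T1 and ENSRNA049757861-T1, and both were higher with ADPRC, as were 96.7% of all genes tested. Both passed the filter only through the libraries with ADPRC, so that they had to be higher, and nothing is read from that count. EdgeR with library totals called ENSRNA049757750-T1 but not ENSRNA049757861-T1 (adjusted p = 0.0357 and 0.0746), against 85% of genes, and limma without a filter called 2 of 9, against 49.4%. Their tagged levels with ADPRC were 1.64 ± 0.790 and 1.10 ± 0.467 TPM over 3 libraries (SD), and neither was tagged without it. Against 3 reads over the libraries without ADPRC, 1.61 TPM, the mean of the first was 1.02 times as high, without the counting error of its own 6 reads. The second did not exceed that limit.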

How the data were processed

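The authors deposited 1 table of tagged reads and 1 of all reads, with a value per gene and library. These are named TPM per the file headers but, as deposited, are CPM values over all reads of the library: 100% of the 177709 all-read and 38774 tagged values above 0 were whole multiples of 1 read (tolerance 0.01 reads), so whole reads were recovered. Aligner, annotation, strand handling and the rule for a tagged read were not given in the sources used here. One row without a gene name, with 1 read, was left out.

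Tests used limma 3.58.1 in R 4.3.3, with a mean trend and two-sided p-values, on log2(TPM + pseudocount), the pseudocount being the median over libraries of the lowest value above 0 (0.953 TPM with and without ADPRC, 1.23 TPM for enrichment). All genes above 0 in at least 3 libraries of a fit were tested, with Benjamini-Hochberg adjustment over all of them and calls at adjusted p under 0.05. EdgeR 4.0.16 and DESeq2 1.42.0 on recovered reads, other pseudocounts, filters and scalings, a replicate block and left-out replicates were alternatives. The scripts were tested on simulated data. Shares have Wilson intervals (statsmodels 0.14.6) and pooled ratios exact conditional binomial intervals.

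Same-numbered libraries with and without ADPRC deviated together from their group means over 8896 genes at 10 TPM or more (r = 0.235, 0.182 and 0.177). Enriched and unenriched libraries did not (r between -0.01 and 0.01), nor did tagged levels. The labels state no pairing, so the main fits had no block. Fits with the replicate number as a block are given beside them as alternatives.

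The entries, their classes and these tests were chosen with earlier results of these data known. Named are the 10 entries with the most reads, those most read in total RNA (6 because of a tie), all 9 with a tagged read, and of those called the 2 with the largest change in each direction. ENSRNA049495691-T1 and ENSRNA049493731-T1 are named besides, each to give the limit of a count.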

Additional observations from a re-analysis of the deposited data

How the results depend on the processing

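The number of entries called lower after enrichment was 15, and 15 to 19 with the larger pseudocount, without a filter, with centred libraries, with a replicate block (15), with edgeR under both scalings and in 1 fit of all 10 poly(A) libraries. Over all genes these settings called 1.80% to 3.31% lower. It was 7 at a mean of 10 TPM or more and the same 7 with DESeq2, where fewer entries were tested or given an adjusted p, and 8 to 16 without 1 replicate. The shares of genes called lower were 6.83%, 6.17% and, without 1 replicate, 0.629% to 3.21%. No called entry changed sign in these. For ADPRC in all reads the count was 0, but 1 with edgeR and TMM, 1 with the replicate block, 1 in the fit of 10 libraries and 0 to 1 without 1 replicate, ENSRNA049493837-T1 each time. These settings called 0% to 0.324% of genes lower, the most with the block. For tagged reads the count of 2 became 0 at a mean of 10 TPM, 1 with edgeR, 0 with edgeR and TMM, 0 with DESeq2 and 0 to 2 without 1 replicate. Genes called higher were 1215 of 1215 at a mean of 10 TPM and 6491 of 7634 with edgeR. With edgeR and TMM they were 533 of 7634, and with DESeq2 17 of 2454. For tagged reads limma was also fitted with the replicate block. The count was 2 with that block. With centred libraries both turned lower (-4.74 for ENSRNA049757750-T1 and -5.05 for ENSRNA049757861-T1), as with DESeq2 (-3.71 and -4.40), where the median gene shifted by -3.81 and -2.56. In DESeq2 neither had an adjusted p. Without ENSRNA049451242-T1 the summed level was 92.8 and 165 TPM in enriched libraries with and without ADPRC and 1036 and 959 TPM in unenriched ones. Without the 3 entries with the most reads it was 26.5, 50.8, 293 and 265 TPM. Entries with at least 3 reads numbered 6, 6, 17.3 and 16 per library in these groups, where 37.3 and 33 had any read in the unenriched ones (32 in the last without ENSRNA049451242-T1). Depth limits the 54 entries with under 10 reads and the lone control and total RNA libraries.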

Other observations

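The 2 entries with the most reads kept a similar proportion before enrichment. ENSRNA049451242-T1 had 1.99, 2.03 and 2.03 times the reads of ENSRNA049494572-T1 in unenriched poly(A) libraries with ADPRC and 1.78 times in the one without. In enriched libraries the proportion ran from 1.69 to 2.51 with ADPRC and from 1.08 to 1.68 without, and in total RNA it was 1.28 with ADPRC (64 and 50 reads). ENSRNA049493837-T1, set against ENSRNA049494572-T1 in the same way, ran from 0.270 to 0.433 in unenriched libraries with ADPRC, from 0.182 to 0.534 in enriched libraries with ADPRC and from 0.541 to 1.16 in those without. It was 0 of 50 reads in total RNA with ADPRC. These proportions were looked at after the values had been seen and were not tested.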
